A study of Mus musculus with 7 samples.

Results

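The 10 genes of the growing hair follicle followed here were Lef1, Msx1, Msx2, Hoxc13, Foxn1, Dlx3, Shh, Bambi, Tchh and Padi3. They were chosen by name as regulators and structural genes of the hair matrix and shaft, and each had 1 row among the 25322 genes of the deposited table. Expression was measured by bulk RNA-seq at day 36 in tdTomato-positive cells that had been sorted out of mouse skin. The 4 knockout libraries (Zfp750_KO) are labelled ZNF750 fl/fl, 3 of them with Rosa26 +/- and 1 with Rosa26 -/-. The 3 control libraries all carry Rosa26 +/-, and 2 of them are wt/fl and 1 is wt/wt for ZNF750. All 7 also carry Lrig1-CreERT2 or Lrig1-CreER +/-, a tamoxifen-inducible Cre recombinase whose promoter is active in stem cells of the upper hair follicle. 4-hydroxytamoxifen was given to pups from day 4 to 7 or from day 5 to 8, to controls and knockouts alike, and the labels do not say which library had which. Libraries are called by the columns of the table, which name a group and no individual sample, so the wt/wt control and the Rosa26 -/- knockout could not be tied to a library. Separate animals are not stated for the libraries. As genotypes differ within each group, its libraries did not all come from a single animal, but those of the same genotype may have. The spread that p-values measure may therefore be technical in part.

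The hair matrix is the proliferating epithelium at the base of the growing follicle, and its cells differentiate upward into the hair shaft and the inner root sheath around it. Wnt signals acting through beta-catenin and Lef1, together with Shh and BMP signals, direct this step. The homeobox factors Msx2, Dlx3 and Hoxc13 and the forkhead factor Foxn1 then switch on hair keratins and other structural genes. Trichohyalin, the product of Tchh, fills the inner root sheath and medulla, where it is deiminated by Padi3 and cross-linked by transglutaminases. Zfp750 (ZNF750 in humans) is a zinc finger factor that acts in the terminal differentiation of epidermis.

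None of the 9 members that could be tested passed a limma adjusted p of 0.05, as none of all genes did with the group as the only term (0%) and 3.39% did with a macrophage score added, and the member with the cleanest separation of the groups was Tchh. Its normalized values were 122, 143, 104 and 139 in Zfp750_KO libraries 1M, 2M, 3F and 6F, against 214, 191 and 168 in control 4F, 4M and 7F. Every Zfp750_KO library lay below every control, which was true of no other member and of 3.91% of all genes tested. Padi3 averaged 30.6 ± 9.85 in Zfp750_KO (SD, n = 4) and 98.8 ± 74.8 in control (SD, n = 3), and Foxn1 averaged 16.1 ± 5.99 in Zfp750_KO and 57.9 ± 50.8 in control. Control 4F was the highest library for both genes. Without it, with the group alone, the log2 difference moved from -1.20 to -0.68 for Padi3 and from -1.03 to -0.46 for Foxn1. In bulk RNA, fewer cells of a type and less RNA per cell cannot be told apart. Apart from Tchh, the groups overlapped for every member.

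The depth recovered from the values was 9.09 to 17.1 M reads per library. Zfp750 itself (ENSMUSG00000039238, chromosome 11) had 48.9, 45.4, 10.1 and 29.6 in Zfp750_KO libraries 1M, 2M, 3F and 6F, against 335, 51.2 and 61.9 in control 4F, 4M and 7F. No Zfp750_KO library reached a control, as in 3.91% of all genes tested (two-sided exact permutation p = 0.0571). Zfp750_KO 1M lay only just below control 4M, and control 4F was far above the other controls. The libraries were mixtures of several cell types in unequal shares. The 20 fibroblast markers had the largest summed values, 210954 to 1646606 in Zfp750_KO and 1029085 to 2417331 in control. The 20 keratinocyte markers summed to 5238 to 46992 in Zfp750_KO and 5849 to 51921 in control. Such sums are not shares of cells. The macrophage score, which is the mean log2 value of 23 macrophage and monocyte genes, was 7.34, 6.96, 11.3 and 11.02 in Zfp750_KO libraries 1M, 2M, 3F and 6F, against 5.68, 10.2 and 10.5 in control 4F, 4M and 7F. The keratinocyte score, from 20 genes, ran the other way: 10.02, 9.21, 7.24 and 8.47 in those Zfp750_KO libraries, against 10.2, 7.51 and 7.98 in those controls. Control 4F stands apart from the other controls by both scores.

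**Figure D1:**
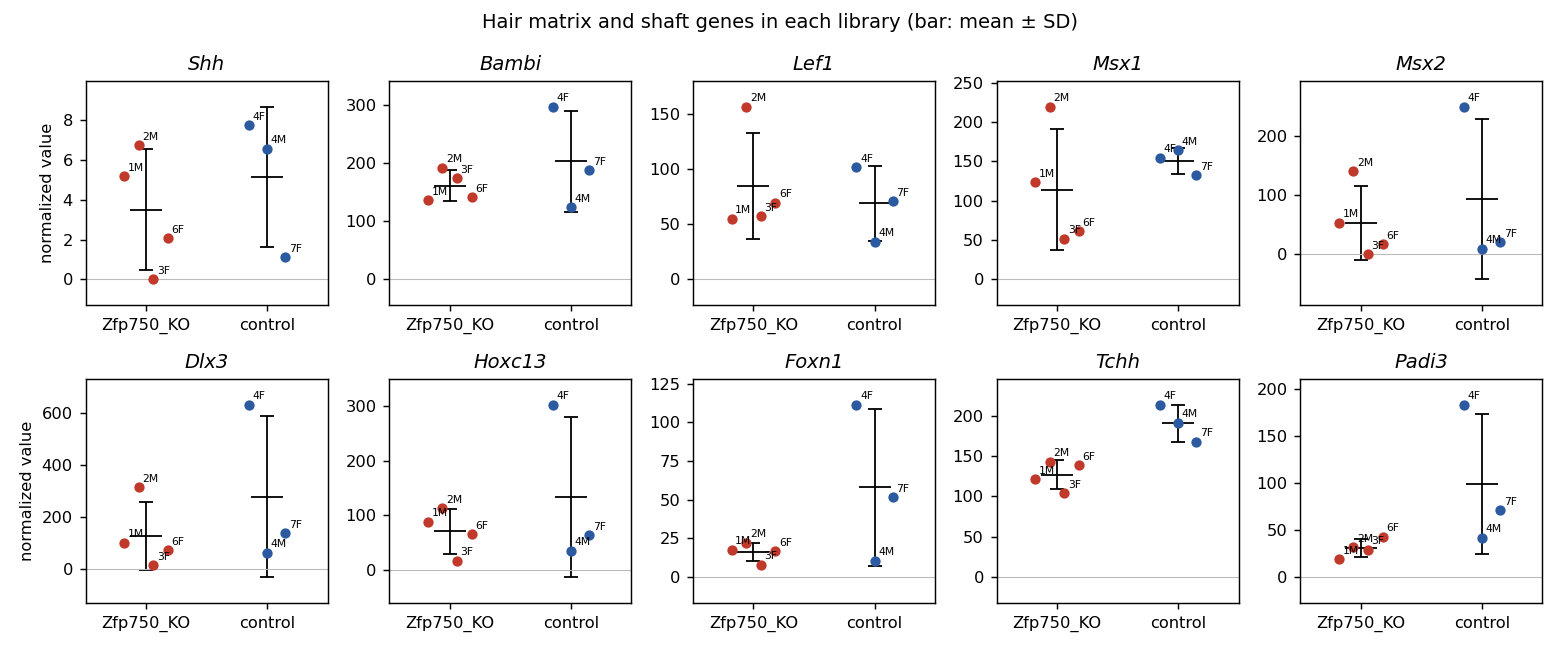
Normalized value (vertical axis, linear, a separate scale in each panel) of the 10 genes in the 4 Zfp750_KO libraries and the 3 control libraries. Each point is a library with its name, and bars give the mean ± SD; Tchh is the only panel in which the groups do not overlap, and control 4F is the highest library in 8 of the 10 panels.

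Differences are given on the log2(value + 11.9) scale, Zfp750_KO minus control, where changes of weakly expressed genes come out too small. They come from limma fits over 18141 genes, those that reached 1 per M of a column total in 3 or more libraries. The first fit has the group as its only term, and the second also holds the macrophage score. With the group alone no gene of the table passed (0%), while 5.83% had an unadjusted p under 0.05, 3.65% in the direction lower in Zfp750_KO. With the macrophage score 615 genes passed, or 3.39% (1.27% higher and 2.12% lower in Zfp750_KO), and 9.04% were lower in Zfp750_KO at an unadjusted p under 0.05. Of the 9 tested members none passed in either fit. At an unadjusted p under 0.05, 2 were lower with the group alone and 3 with the macrophage score, and none was higher. The median difference over the 9 was -0.55 with the group alone and -0.49 with the score, beside 0.025 and 0.020 over all genes tested. The estimate was below 0 in 8 of the 9, beside 46.7% of all genes with the group alone and 47.5% with the score. Only 9 members are in these counts, since Shh was too low to be tested. Control 4F was the highest library for 8 of the 10 members. Without it, with the group alone, Lef1 was at 0.53, Msx2 at 0.73, Hoxc13 at 0.28 and Bambi at 0.055. The other tested members stayed below 0, with Dlx3 at -0.16. With the score, only Lef1 at 0.37 and Bambi at 0.046 were then above 0. The count below 0 thus rests in part on this library.

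**Figure D2:**
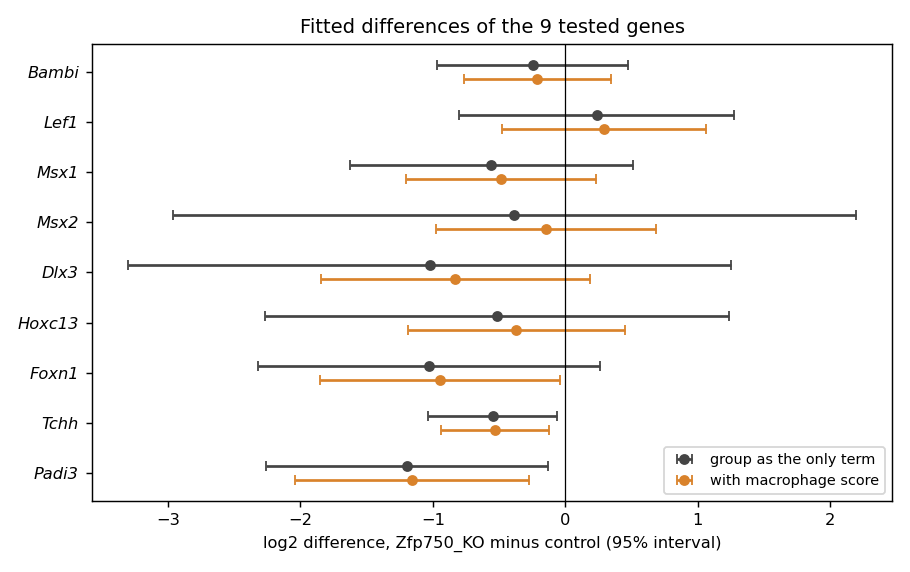
Log2 difference between Zfp750_KO and control (horizontal axis) of the 9 tested genes, with 95% intervals from the 2 limma fits, which are not adjusted for the number of genes tested. The intervals of Tchh and Padi3 lie below 0 in both fits and that of Foxn1 with the macrophage score, while those of Msx2 and Dlx3 are the widest with the group alone.

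Trichohyalin and the enzyme that modifies it were considered first. Tchh (ENSMUSG00000052415, chromosome 3) averaged 127 ± 17.8 in Zfp750_KO (SD, n = 4) and 191 ± 23.0 in control (SD, n = 3). The log2 difference was -0.55 ± 0.21 (SE) with the group alone, with an interval of -1.03 to -0.065 and a limma adjusted p of 0.756. With the macrophage score it was -0.53 ± 0.18 (SE, limma adjusted p = 0.161). The two-sided exact permutation p over the 35 ways to place the labels was 0.0571, the smallest that this design allows. Its fitted slope on the macrophage score was -0.044 log2 units per unit of score, the flattest of the members. Tchh was also the member with the smallest ratio of highest to lowest library, 2.05, where Krt5, a keratin of basal keratinocytes, had a ratio of 20.2. The 92 to 276 reads behind each value were not all whole, and a lncRNA without a gene name, at up to 14.03 in any library, overlaps Tchh on the opposite strand. The strand setting of the counting is not given in the sources used here.

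Padi3 (ENSMUSG00000025328, chromosome 4) encodes a peptidylarginine deiminase that converts arginines of trichohyalin to citrulline. Its values were 18.7, 31.9, 29.3 and 42.7 in Zfp750_KO libraries 1M, 2M, 3F and 6F, against 183, 42.0 and 70.9 in control 4F, 4M and 7F. The groups met at a single point, where Zfp750_KO 6F lay just above control 4M, and control 4F was far above all others. Its log2 difference was -1.20 ± 0.46 (SE) with the group alone, with an interval of -2.26 to -0.13 and a limma adjusted p of 0.769. With the macrophage score it was -1.16 ± 0.39 (SE, limma adjusted p = 0.162), and the two-sided exact permutation p was 0.114. Without control 4F the difference was -0.68 with the group alone and -0.58 with the score. When libraries were weighted by their fit, with the group alone, Padi3 passed at -0.99 ± 0.29 (SE, limma adjusted p = 0.0486), where 20.9% of all genes did. With the same weights and the macrophage score it did not pass, at -0.88 ± 0.32 (SE, limma adjusted p = 0.140). Between 18 and 237 reads stood behind each value.

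A related pair was chosen after its values were seen, for its known link to these proteins. S100a3, whose human product is a Padi3 substrate of the hair cuticle, averaged 39.0 ± 44.3 in Zfp750_KO and 123 ± 114 in control, with a log2 difference of -1.38 ± 0.73 (SE, limma adjusted p = 0.979 with the group alone). Tgm3, a transglutaminase that cross-links trichohyalin, averaged 9.20 ± 9.08 in Zfp750_KO and 29.5 ± 22.3 in control, with a log2 difference of -0.91 ± 0.47 (SE, limma adjusted p = 0.959). Both overlapped between the groups, and control 4F was the highest library for each. Without control 4F the S100a3 difference was -0.73 ± 0.68 (SE, limma adjusted p = 0.872 with the group alone), and Tgm3 was too low to be tested.

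The promoters of Tchh, Padi3, Foxn1 and Msx2 are shown because the first 3 genes had the smallest p-values of the members, and Msx2 a library without a read. Promoters were available for 6 of the 10 members, which also include Lef1 and Msx1. Each sequence is the 250 bases before the RefSeq start on the GRCm38.p6 build, written 5′ to 3′ on the strand of the gene. The build of the expression table is not given in the sources used here, and its nuclear positions differ from this build. Capitals mark matches, on both strands, to CTTTGAA or CTTTGTT (forms of the TCF and LEF core), TAATT (a homeodomain core) and CCNNNAGGC (a motif described for human ZNF750).
Tchh, chr3:93442080-93442329, plus strand: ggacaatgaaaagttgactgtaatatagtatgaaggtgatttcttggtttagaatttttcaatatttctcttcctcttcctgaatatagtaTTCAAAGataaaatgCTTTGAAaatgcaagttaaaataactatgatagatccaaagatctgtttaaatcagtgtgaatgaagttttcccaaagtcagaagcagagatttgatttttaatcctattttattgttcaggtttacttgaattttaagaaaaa
Padi3, chr4:140810649-140810898, minus strand: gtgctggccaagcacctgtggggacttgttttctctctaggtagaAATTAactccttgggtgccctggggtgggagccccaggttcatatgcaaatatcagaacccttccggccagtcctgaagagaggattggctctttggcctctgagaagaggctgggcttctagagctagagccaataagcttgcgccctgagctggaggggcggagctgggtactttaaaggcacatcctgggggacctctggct
Foxn1, chr11:78386609-78386858, minus strand: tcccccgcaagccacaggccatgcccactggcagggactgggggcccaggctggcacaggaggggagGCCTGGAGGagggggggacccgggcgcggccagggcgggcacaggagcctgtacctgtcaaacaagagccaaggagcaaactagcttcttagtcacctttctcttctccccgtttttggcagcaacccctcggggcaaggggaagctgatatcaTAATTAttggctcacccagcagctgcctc
Msx2, chr13:53472781-53473030, minus strand: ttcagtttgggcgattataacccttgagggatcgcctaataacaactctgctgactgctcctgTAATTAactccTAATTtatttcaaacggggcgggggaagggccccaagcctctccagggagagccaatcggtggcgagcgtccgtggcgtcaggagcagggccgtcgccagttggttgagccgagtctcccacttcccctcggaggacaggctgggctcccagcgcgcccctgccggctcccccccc

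The Tchh promoter held CTTTGAA at 2 places, 144 bases before the start on the strand of the gene and 159 bases before it on the other strand. Of all 32851 promoters, 4.46% held this form at least once and 0.161% held 2 or more matches. CTTTGTT, found in 5.03% of promoters, was in none of the members' windows. Padi3, Foxn1 and Msx2 each held TAATT, as 25.0% of all promoters do. So did a window of Lef1, which has several starts, 29 bases before the start. The capital TAATTA in Foxn1 and in Msx2 is a match on both strands that overlap. CCNNNAGGC was in the Foxn1 and Msx1 windows and in some windows of Lef1, beside 19.8% of all promoters. A match is a stretch of letters, and binding was not measured.

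Foxn1 (ENSMUSG00000002057, chromosome 11) is the factor whose loss leaves nude mice without visible hair, because the shafts do not keratinize. Its values were 17.7, 22.2, 7.89 and 16.5 in Zfp750_KO libraries 1M, 2M, 3F and 6F, against 111, 10.5 and 51.7 in control 4F, 4M and 7F. Control 4F and 7F were above every Zfp750_KO library, while control 4M lay among them at 8 reads. The estimated difference was -1.03 ± 0.55 (SE, limma adjusted p = 0.992) with the group alone and -0.95 ± 0.40 (SE, limma adjusted p = 0.268) with the macrophage score. The two-sided exact permutation p was 0.229. Single libraries moved the estimate in both directions. Without control 4F it was -0.46 with the group alone and -0.58 with the score, and without control 4M it was -1.69 with the group alone and -1.53 ± 0.28 with the score (SE, limma adjusted p = 0.0614). Without control 7F it was -0.60 with the score. Foxn1 was also close to Padi3 in its profile. The root mean square distance between their log2 values over the 7 libraries, each centred on its mean, was 0.40. This was the second smallest of the 36 pairs of members. Both genes were highest in control 4F, and the distance is not scaled for the size of the changes. Foxn1, at 2.75 per M on average and 0.733 in Zfp750_KO 3F, was too low for the comparison with other genes below.

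The homeobox genes Msx2, Dlx3 and Hoxc13, which act in matrix cells entering the shaft, were all highest in control 4F and lowest in Zfp750_KO 3F. Msx2 (ENSMUSG00000021469, chromosome 13), which in mice is needed to keep the growing phase and acts upstream of Foxn1, had 53.0, 141, 0 and 17.2 in Zfp750_KO libraries 1M, 2M, 3F and 6F, against 250, 9.19 and 20.2 in control 4F, 4M and 7F. The libraries with a macrophage score under 9, control 4F and Zfp750_KO 1M and 2M, were the 3 highest. Zfp750_KO 3F had no read of Msx2 in 9.55 M, which allows up to 0.314 per M reads, a limit for counting error only. The log2 difference was -0.38 ± 1.10 (SE, limma adjusted p = 1.0) with the group alone, with an interval of -2.96 to 2.20, and -0.15 ± 0.37 (SE, limma adjusted p = 0.897) with the score. Its direction was not stable. With the group alone it was 0.73 without control 4F and 0.23 without Zfp750_KO 3F, but -1.09 without control 4M and -0.99 without Zfp750_KO 2M.

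Dlx3 (ENSMUSG00000001510, chromosome 11), needed in mice for the hair shaft and inner root sheath to form, had 101, 315, 14.7 and 71.6 in Zfp750_KO libraries 1M, 2M, 3F and 6F, against 633, 63.0 and 138 in control 4F, 4M and 7F. The groups overlapped and the highest library was 43.2 times the lowest, the widest ratio among members with reads in every library. Its log2 difference was -1.03 ± 0.97 (SE, limma adjusted p = 1.0) with the group alone and -0.83 ± 0.45 (SE, limma adjusted p = 0.400) with the macrophage score. With the group alone it was -0.16 without control 4F and -0.41 without Zfp750_KO 3F, but -1.71 without control 4M and -1.62 without Zfp750_KO 2M. With the score it was -0.79 without control 4F, -0.52 without Zfp750_KO 1M and -0.50 without control 7F. Relative to Krt5, Dlx3 stood at 0.828% to 6.62% in Zfp750_KO and at 4.31% to 9.67% in control. The ranges of this ratio overlapped for Dlx3 and for every other member. Lef1, Bambi and Msx2 reached higher in Zfp750_KO, at 7.84%, 24.0% and 2.96%, than in control, at 4.95%, 13.1% and 1.70%. All other members reached higher in control.

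Hoxc13 (ENSMUSG00000001655, chromosome 15), a direct regulator of hair keratin genes, had 88.4, 113, 16.9 and 66.1 in Zfp750_KO libraries 1M, 2M, 3F and 6F, against 303, 35.4 and 64.1 in control 4F, 4M and 7F. Apart from control 4F at the top and Zfp750_KO 3F at the bottom, the other 3 Zfp750_KO libraries lay above the other 2 controls. The estimated difference was -0.52 ± 0.75 (SE, limma adjusted p = 1.0) with the group alone and -0.37 ± 0.36 (SE, limma adjusted p = 0.684) with the score, and with the group alone it was 0.28 without control 4F, -0.071 without Zfp750_KO 3F and -1.09 without control 4M. With the score it ran from -0.10 without control 4F to -0.69 without control 4M. The fitted slopes on the macrophage score were -0.66 for Msx2, -0.54 for Dlx3 and -0.41 for Hoxc13, the steepest of the members, beside -0.72 for Krt5. These slopes are a description over 7 libraries that share their cell mixtures.

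Msx1 (ENSMUSG00000048450, chromosome 5), the paralog of Msx2, had a different pattern. Its values were 124, 219, 51.8 and 61.3 in Zfp750_KO libraries 1M, 2M, 3F and 6F, against 155, 164 and 133 in control 4F, 4M and 7F. The controls were close together although their macrophage scores were not, while Zfp750_KO 3F and 6F were the lowest libraries and 2M the highest. Over all libraries the log2 difference was -0.56 ± 0.46 (SE, limma adjusted p = 1.0) with the group alone and -0.49 ± 0.32 (SE, limma adjusted p = 0.497) with the score. With the group alone it was -0.30 without Zfp750_KO 3F, -0.36 without 6F and -0.91 without 2M, and with the score it was -0.26 without control 4M and -0.79 without Zfp750_KO 2M. In the 4 libraries with a macrophage score above 9, a choice made after seeing the data, Msx1 fell in Zfp750_KO 3F and 6F relative to control 4M and 7F, by 1.22 ± 0.28 on the log2 scale (SE, limma adjusted p = 0.0160). In that comparison 2079 of 18141 genes passed, or 11.5%, and no other member did. Without control 4F the fit with the macrophage score also gave a call for Msx1, at -0.96 ± 0.25 (SE, limma adjusted p = 0.0350), where 1592 of 17924 genes passed, or 8.88%. Zfp750_KO 1M and 2M, set against control 4F, showed no such shift, with 124 and 219 against 155. The mean of the 20 fibroblast markers was also lower in Zfp750_KO 3F and 6F, at 11.5 and 11.6, than in control 4M and 7F, at 12.8 and 12.6. With this fibroblast score as covariate the Msx1 difference over all 7 libraries was -0.36 ± 0.25 (SE, limma adjusted p = 0.565). Over all 7 libraries with the T cell score as covariate the Msx1 difference was -0.0017 ± 0.36 (SE, limma adjusted p = 0.998), and it was 0.13 with libraries weighted by their fit.

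**Figure D3:**
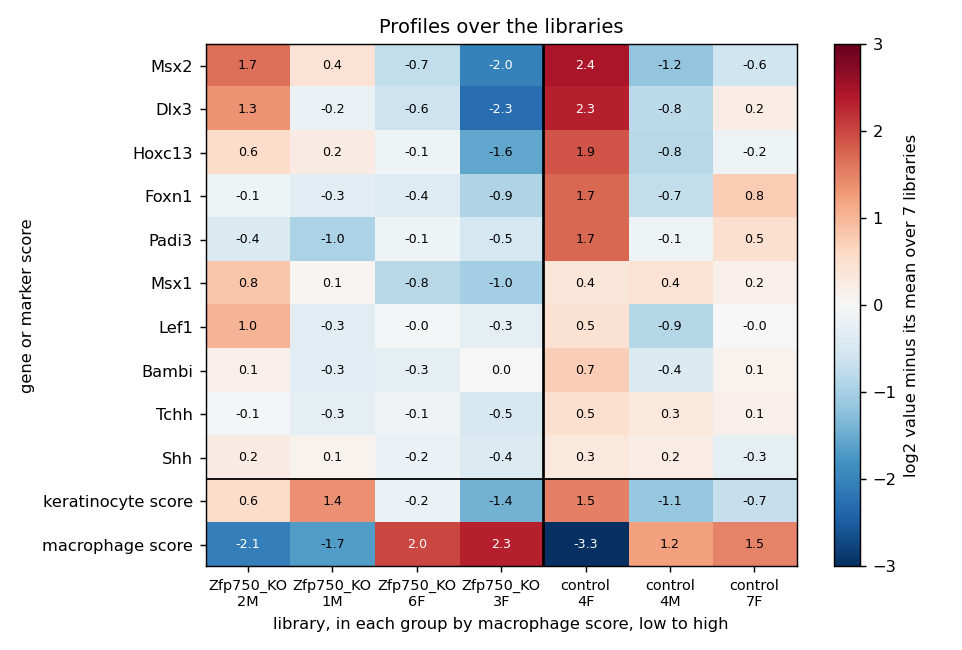
Log2 value of the 10 genes and of the keratinocyte and macrophage scores (rows) in each library (columns, ordered within each group by macrophage score), each minus its mean over the 7 libraries. Red is above and blue below that mean; Msx2, Dlx3 and Hoxc13 are highest in control 4F and lowest in Zfp750_KO 3F, whereas Bambi and Tchh stay close to their means.

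Lef1 (ENSMUSG00000027985, chromosome 3), the partner of beta-catenin in matrix and dermal papilla, was the only member whose estimate was higher in Zfp750_KO. Its values were 55.1, 156, 57.0 and 69.6 in Zfp750_KO libraries 1M, 2M, 3F and 6F, against 102, 34.1 and 70.9 in control 4F, 4M and 7F. The extremes were Zfp750_KO 2M and control 4M, and the groups overlapped widely. The log2 difference was 0.24 ± 0.44 (SE, limma adjusted p = 1.0) with the group alone and 0.29 ± 0.34 (SE, limma adjusted p = 0.737) with the score. It was -0.068 without Zfp750_KO 2M and -0.12 without control 4M with the group alone. With the score it was 0.010 without control 4M, 0.034 without Zfp750_KO 2M, 0.59 without Zfp750_KO 1M and 0.54 without control 7F. Lef1 is also a gene of T cells, and the mean of 23 T cell and innate lymphoid genes was 6.19, 6.40, 8.09 and 7.56 in Zfp750_KO libraries 1M, 2M, 3F and 6F, against 5.20, 6.39 and 6.70 in control 4F, 4M and 7F. All 23 had a difference above 0, where 46.7% of all genes were below 0 with the group alone and 47.5% with the score. None of the 23 passed with the group alone. With the macrophage score 3 rose, beside 1.27% of all genes. Each of the 3 lost the call without control 4M (limma adjusted p-values up to 0.215). With the T cell score as covariate the Lef1 difference was 0.58 ± 0.44 (SE, limma adjusted p = 0.381). That score is not specific to T cells. It includes Thy1, which is also on the fibroblast list, and Gata3, which is also on the list of follicle transcription factors. The antisense lncRNA Lef1os1, at up to 11.9 in any library, overlaps the gene.

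The genes whose profiles over the 7 libraries were most like that of Lef1 were all pigment genes. The measure is the root mean square distance between log2 values, each gene centred on its own mean, over all tested genes that are not members or predicted genes, for members with at least 1 per M in every library or 5 per M on average. Tyrp1, a melanosomal enzyme of eumelanin synthesis, was nearest at 0.19, followed by tyrosinase (Tyr) at 0.20 and Pmel, the fibril protein of melanosomes, at 0.23. Tyrp1 had 38.5, 140, 48.5 and 49.6 in Zfp750_KO libraries 1M, 2M, 3F and 6F, against 85.2, 15.8 and 49.5 in control 4F, 4M and 7F. All 4 genes were highest in Zfp750_KO 2M and lowest in control 4M among the 7 libraries. For Msx1 the nearest were Cpeb1, Thsd4 and Kcnn1 at 0.11 each. For Dlx3 the nearest was Krt28, a keratin of the inner root sheath, at 0.41, and for Msx2 it was Lgr6, a receptor of follicle and epidermal stem cells, at 0.37. Hoxc13 was nearest to Tbx1, Cracdl and Grhl2, at 0.24 to 0.25. Tchh was nearest to Hcn2, Carhsp1 and Armc6 at 0.11 to 0.12, Bambi to Kif18a, Tex15 and Dtwd1 at 0.15 to 0.16, and Padi3 to Slc39a10, Eya1 and Fzd5 at 0.33 to 0.36. The distance is not scaled for the size of the changes, so flat profiles such as those of Tchh and Bambi come out close to others.

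**Figure D4:**
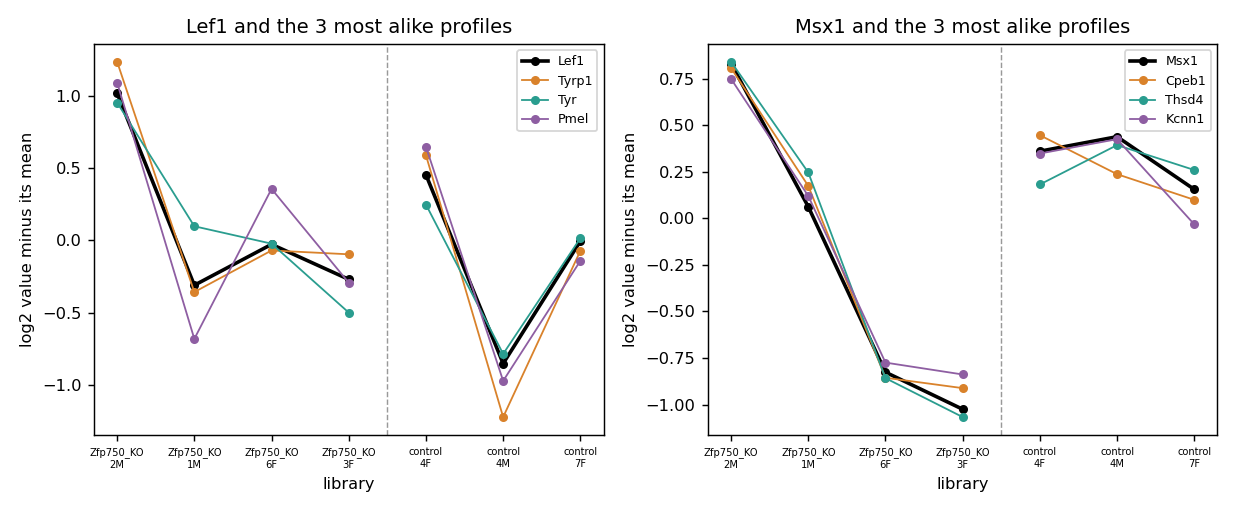
Log2 value minus its mean over the 7 libraries (vertical axis) of Lef1 and Msx1, each with the 3 tested genes of most similar profile, by library (horizontal axis, Zfp750_KO left of the dashed line and control right). Lines only join the points of a gene within a group; Lef1 and the pigment genes Tyrp1, Tyr and Pmel are highest in Zfp750_KO 2M and lowest in control 4M.

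Bambi (ENSMUSG00000024232, chromosome 18) encodes a transmembrane pseudoreceptor that resembles type I receptors of the TGF-beta family but lacks a kinase domain, and it dampens BMP and TGF-beta signals. Its values were 136, 192, 175 and 142 in Zfp750_KO libraries 1M, 2M, 3F and 6F, against 297, 125 and 188 in control 4F, 4M and 7F. The Zfp750_KO libraries were close together, and the controls spanned a range on both sides of them. Its log2 difference was -0.25 ± 0.31 (SE, limma adjusted p = 1.0) with the group alone and -0.21 ± 0.25 (SE, limma adjusted p = 0.739) with the score, and with the group alone it was 0.055 without control 4F and -0.53 without control 4M. With the score it was 0.046 without control 4F and -0.47 without control 4M. Bambi and Tchh were the closest pair of members, at a distance of 0.37. Both varied little, with ratios of highest to lowest library of 2.38 and 2.05, and the distance is not scaled for this. Their patterns differed, as Bambi was lowest in control 4M and Tchh in Zfp750_KO 3F.

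Shh (ENSMUSG00000002633, chromosome 5), the secreted ligand made at the tip of the matrix, was close to the detection limit. Its values were 5.20, 6.76, 0 and 2.07 in Zfp750_KO libraries 1M, 2M, 3F and 6F, against 7.74, 6.56 and 1.12 in control 4F, 4M and 7F. These stand for 5, 7, 0 and 3 reads in those Zfp750_KO libraries and 10, 5 and 1 reads in those controls, so a difference was not detectable at this depth. Its two-sided exact permutation p was 0.514. Ptch1 and Gli1, hedgehog targets named after their values were seen, were well measured and overlapped between the groups. Gli1 averaged 437 ± 86.9 in Zfp750_KO and 360 ± 244 in control, and Ptch1 953 ± 248 in Zfp750_KO and 875 ± 583 in control.

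Per M of the column total and per kb of exon, the members were low beside Krt5. Dlx3 had the highest mean at 5.76, followed by Msx1 at 3.41, Hoxc13 at 3.17, Bambi at 2.94, Tchh at 2.21, Msx2 at 1.65 and Padi3 at 1.42. Foxn1 at 0.856, Lef1 at 0.729 and Shh at 0.117 were the lowest, and Krt5 was at 183. This order rests in part on control 4F. Without it Dlx3 was at 3.66, Msx1 at 3.34, Bambi at 2.69, Hoxc13 at 2.15, Tchh at 2.11, Padi3 at 0.990, Msx2 at 0.960, Lef1 at 0.704, Foxn1 at 0.561 and Shh at 0.102, so that Hoxc13 stood below Bambi, Msx2 below Padi3 and Foxn1 below Lef1. Over all 7 libraries the ranges of neighbours in this order overlapped, except that Lef1, from 0.325 to 1.35, lay above Shh, from 0 to 0.206. Exon lengths were taken from GENCODE M21 and may differ from the annotation behind the table.

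Genes that act with the members were counted from lists. With the macrophage score 1.27% of all genes tested passed as higher and 2.12% as lower in Zfp750_KO. These are the shares to set beside each list, and with the group alone no gene of the table passed. Of 25 tested inner root sheath and medulla genes none passed with the group alone. With the macrophage score 3 fell and 2 rose, and the median difference was -0.20. Krt75, a keratin of the companion layer and medulla, averaged 150 ± 80.9 in Zfp750_KO and 688 ± 350 in control, without overlap, and fell by 2.03 on the log2 scale (limma adjusted p = 0.0367). Krt71, a keratin of the inner root sheath, fell by 1.00 (limma adjusted p = 0.0237) with overlapping groups. Both of these lost the call without any 1 of Zfp750_KO 2M, 3F and 6F and control 4M and 7F, and adjusted p-values then reached 0.142. Selenbp1, named after its value was seen, fell by 0.91 (limma adjusted p = 0.0441) and kept the call in 1 of the 7 fits without a library. The risers were Tgm1, a transglutaminase of the epidermis, at 1.18 and Lgmn, a lysosomal protease abundant in macrophages, at 0.99. Both lost the call without control 4M or 7F, and Tgm1 also without Zfp750_KO 2M, and adjusted p-values then reached 0.0925.

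Of 40 listed hair shaft keratins and keratin-associated proteins, 10 were high enough to be tested. In both fits 9 of these had a difference below 0, beside 46.7% of all genes with the group alone and 47.5% with the score. The median of the 10 was -1.22 with the group alone and -1.07 with the score, and no keratin passed. How far the differences of this list rest on control 4F was not tested. Lrrc15, a membrane protein also made by activated fibroblasts, was the only call of the list. It rose by 3.34 with the macrophage score (limma adjusted p = 0.0123), and its adjusted p was 0.0516 without control 4M. The other 30 listed genes were absent from the table or too low to be tested.

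Among 38 tested transcription factors of the follicle 4 rose with the macrophage score and none fell, beside 1.27% and 2.12% of all genes. Their median difference was 0.067. Prdm1, a repressor of the inner root sheath and dermal papilla among other cells, rose by 2.71, Runx3 by 1.98, Runx1 by 1.20 and Trps1, a factor of the dermal papilla and epithelium, by 1.06. Runx3 and Runx1 are also abundant in T cells and other leukocytes. The groups did not overlap for any of the 4, as in 3.19% of all genes in this direction, and limma adjusted p-values were 0.00342 to 0.0276. Runx3 kept the call without any 1 library, Prdm1 and Runx1 lost it without control 4M (adjusted p-values of 0.0680 and 0.0946), and Trps1 without any 1 of Zfp750_KO 2M and 3F and control 4M and 7F (up to 0.164).

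None of 18 tested hedgehog genes passed in either fit, and the median difference was -0.095 with the group alone. By their means Gas1, a co-receptor of hedgehog ligands, and Cdon, another co-receptor, led the list, with log2 differences of 0.18 and -0.58. Of 40 Wnt genes Sfrp4, a secreted modulator, fell by 2.63 with the macrophage score (limma adjusted p = 0.00348), none rose, and the median was 0.075. The share of all genes that fell with this score was 2.12%. Of 31 BMP and TGF-beta genes 3 fell and 1 rose with the score, beside 2.12% and 1.27% of all genes. Bmp4, a ligand of the dermal papilla, fell by 0.88 and Tgfb2, a ligand, by 1.35, while Grem1, a BMP antagonist, rose by 3.45. Bmper, a secreted BMP modulator, fell by 1.10. All 4 lost the call without control 4M. Bmp4 also lost it without any 1 of Zfp750_KO 1M, 2M and 6F and control 7F, Tgfb2 without Zfp750_KO 3F or 6F or control 7F, Grem1 without Zfp750_KO 1M, 2M or 6F, and Bmper without Zfp750_KO 2M or control 7F, and adjusted p-values then reached 0.151. The dermal papilla and sheath list had 2 of 22 genes higher, Trps1 and Itga8, and 2 lower, Bmp4 and Itga9. Of all genes 1.27% were higher and 2.12% lower, and the median of this list was 0.52. Itga8 kept the call in 2 and Itga9 in 1 of the 7 fits without a library. None of 24 proliferation genes passed in either fit, and Mki67, a marker of cycling cells, averaged 795 ± 406 in Zfp750_KO and 726 ± 141 in control. Pcna, the sliding clamp of DNA replication, averaged 871 ± 204 in Zfp750_KO and 905 ± 161 in control.

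Markers of other cells moved with the groups beside these lists. Of 13 tested skeletal muscle genes 9 fell with the macrophage score, and the summed value of the 14 in the table, 3 of them at 0 in some library, was 634 to 988 in Zfp750_KO and 1393 to 7462 in control. Of 20 keratinocyte markers none passed, and their sums were 5238 to 46992 in Zfp750_KO and 5849 to 51921 in control. With the score 3 of 20 fibroblast genes, 1 of 13 melanocyte and Schwann cell genes and 1 of 23 macrophage genes fell. Of 16 endothelial and mural genes 3 rose, Tagln by 2.26, Acta2 by 1.57 and Myh11 by 1.32, and 1 fell, Tek by 1.45. The calls of these 3 risers were kept without any 1 library. So were the falls of Fap among fibroblast genes, by 1.70, and of Cd163 among macrophage genes, by 2.24. The falls of S100b among melanocyte and Schwann cell genes, Mfap5 and Pi16 among fibroblast genes and Tek among endothelial genes were lost without control 4M or 7F (adjusted p-values up to 0.187), S100b also without any 1 Zfp750_KO library, and Mfap5 and Tek without Zfp750_KO 2M, 3F or 6F. Of the 9 skeletal muscle calls 6 were lost in some fit without a library, all of them without control 7F and with adjusted p-values up to 0.0946. With the keratinocyte score as covariate the members' differences ran from -1.24 for Padi3 to 0.19 for Lef1, and none passed, with Msx2 at -0.61 and Dlx3 at -1.21. With the fibroblast score they ran from -1.21 for Padi3 to 0.32 for Lef1, and none passed, with Dlx3 at -0.67. The part of skeletal muscle, endothelial and melanocyte RNA in the members' values was not tested.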

How the data were processed

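Bulk RNA-seq was measured in 7 libraries, 4 Zfp750_KO and 3 control. The authors deposited 1 table of normalized counts, treated here as a signal that is not raw counts. TopHat2 2.1.0 and Partek 9.0.20.0202 are named, with no role, in the submitters' processing notes. In each library 77.9% to 79.5% of the values were whole multiples of 1 step, within 0.02 reads, so whole reads were not recovered and no count model was run. Depths and reads per gene come from that step. The 9.09 to 17.1 M reads per library set the counting precision only, and not the spread between libraries.

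Values were tested with limma 3.58.1 (R 4.3.3) on log2(value + 11.9), the pseudocount being 1 per M of the median column total, with moderated variances following a trend and Benjamini-Hochberg adjustment over 18141 genes. The group was the only term, or stood beside the macrophage score. The fits were tested on simulated data. Single genes were also tested by two-sided exact permutation over 35 splits. Members and lists were chosen with earlier results of these data known. Beyond the members, list genes were named where a list's members passed, or, where none did, by the highest mean. S100a3, Tgm3, Ptch1, Gli1 and Selenbp1 were named outside this rule, after their values were seen. Zfp750 and Krt5 were named where a result turned on them, and further genes for the closeness of their profiles.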

Additional observations from a re-analysis of the deposited data

How the results depend on the processing

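No paired analysis was possible because the columns of the table state a group but cannot be tied to single numbered samples. With the group alone, the count of genes past an adjusted p of 0.05 was 0 as reported, 3795 with library weights (members: 1, Padi3), 98 with the keratinocyte score and 565 with the fibroblast score. In settings chosen after seeing the data it was 3342 with the T cell score and 2079 in libraries with a macrophage score above 9 (members: 1, Msx1). With the macrophage score it was 615 as reported, 1136 with library weights and 1221 with the column letter, and 131 to 1592 without 1 library, the highest without control 4F and the lowest without control 4M; members called were 0 to 1. Reversed differences with the group alone were, with library weights, Msx1 0.13, Msx2 1.49, Hoxc13 0.54 and Dlx3 0.44. With the T cell score they were Msx2 1.36, Hoxc13 0.58 and Dlx3 0.40. Msx2 was at 0.054 with the fibroblast score, and Bambi at 0.036 with macrophage scores above 9. Without 1 library, ranges that crossed 0 with the group alone were -0.12 to 0.53 for Lef1, -1.09 to 0.73 for Msx2, -1.09 to 0.28 for Hoxc13 and -0.53 to 0.055 for Bambi. With the macrophage score they were -0.42 to 0.11 for Msx2 and -0.47 to 0.046 for Bambi. Tchh stayed between -0.63 and -0.47 with the group alone and between -0.61 and -0.48 with the score in these fits. The cause was not tested. Depth limits Shh, at 0 to 10 reads.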
